A study of Mus musculus with 8 samples.

Results

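Translation initiation factors are the proteins that bring the small ribosomal subunit, the initiator transfer RNA and a capped messenger RNA together at the start codon. Their genes were taken by symbol, as every gene whose name begins with Eif and a number between 1 and 6. The Eif2ak kinases were left out, and a gene was kept only where at least 1 probe set was annotated to it alone. The deposited table held 43 such genes among 18193 genes with a probe set of their own. After a filter on dim probe sets, 41 of them were among 11217 genes tested. Eif2s3y and Eif4a3 fell below the filter by the probe sets annotated to them alone. A brighter probe set that Eif4a3 shares with another gene is described at the end. Eif1, Eif2s1, Eif3g and Eif4g1 were not analysed here.

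Memory CD4 T cells had been sorted from mouse spleen at day 60 after infection with LCMV Armstrong, a strain of lymphocytic choriomeningitis virus that is cleared acutely. The 4 groups were Rictor-null T follicular helper (Tfh) cells, WT Tfh cells, Rictor-null T helper 1 (Th1) cells and WT Th1 cells, each on 2 Affymetrix arrays labelled as biological replicates, with no fewer than 10 mice combined in every sample. Tfh cells help B cells and Th1 cells make interferon gamma, while Rictor is the defining subunit of mTOR complex 2, a kinase complex upstream of AKT. All groups shared the infection and the polyclonal origin of the cells. The sources used here do not give the deleted part of Rictor, any Cre driver, the gates of the sort, or the age and sex of the mice.

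Initiation runs in steps that different factor families serve. The eIF4F complex (the cap-binding eIF4E, the scaffold eIF4G and the helicase eIF4A) prepares the messenger RNA, eIF2 carries the initiator transfer RNA as a ternary complex with GTP, and eIF3 organises the complex on the small subunit. Start codon recognition by eIF1, eIF1A and eIF5 is followed by subunit joining with eIF5B, and eIF2B then reloads eIF2 with GTP. The pathway is known for its control by mTOR complex 1 through the eIF4E-binding proteins and by stress kinases through eIF2.

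Sequences around the transcription start sites are shown for members whose signals are described further on. RefSeq windows of GRCm38.p6, from 250 bases before to 50 bases after a start site, were available for 34 of the 43 genes, with 46 start sites in all. The E-box CACGTG, a palindrome bound by MYC and its relatives and by TFE factors, was present in 11 of the 46 windows (23.9%) and 9 of the 34 genes, against 7.15% of all 32851 windows. Of the 9 genes called in a comparison 6 had a window, and Eif5a2, Eif5a and Eif1b held an E-box. The first 6 windows give 20 bases on each side of an E-box, which is in capitals. The 2 windows of Eif5a2 overlap, and the 2 of Eif5a belong to different start sites.
Eif5a2, chr3:28781115-28781160, plus strand: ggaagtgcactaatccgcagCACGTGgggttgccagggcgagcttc
Eif5a2, chr3:28781140-28781185, plus strand: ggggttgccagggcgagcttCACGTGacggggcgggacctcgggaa
Eif5a, chr11:69920783-69920828, minus strand: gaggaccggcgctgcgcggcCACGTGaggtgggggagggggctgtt
Eif5a, chr11:69921435-69921480, minus strand: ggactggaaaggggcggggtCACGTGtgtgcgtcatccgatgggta
Eif1b, chr9:120492562-120492607, plus strand: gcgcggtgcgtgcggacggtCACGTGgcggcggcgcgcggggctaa
Eif4e, chr3:138527184-138527229, plus strand: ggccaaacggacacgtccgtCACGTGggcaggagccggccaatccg
The E-boxes of Eif5a2 began 142 and 117 bases before the start site, that of Eif1b 24 bases before it and this one of Eif4e 64 bases before it. A motif match is a description of letters only.

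A terminal oligopyrimidine start, the run of C and T that marks messenger RNAs translated under mTOR complex 1, was searched as a C at the start site followed by at least 4 further pyrimidines. It was found at 2 of the 46 start sites (4.35%), against 2.51% of all windows. Only the annotated start base was searched, so a run that begins at a nearby base is not counted. The next windows run from 60 bases before the start site to 20 bases from it. They are given for both genes that had such a start and for Eif2a and Eif2b5, which had neither it nor an E-box. Eif2b5 fell just short of the cut, with a run of 4 pyrimidines counted from the C at its start site. The capitals mark the runs that met the cut.
Eif3f, chr7:108934355-108934434, plus strand: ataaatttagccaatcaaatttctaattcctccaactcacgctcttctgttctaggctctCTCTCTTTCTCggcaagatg
Eif2s3x, chrX:94212632-94212711, minus strand: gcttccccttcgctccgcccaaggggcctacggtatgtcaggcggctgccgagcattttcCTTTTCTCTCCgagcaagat
Eif2a, chr3:58525761-58525840, plus strand: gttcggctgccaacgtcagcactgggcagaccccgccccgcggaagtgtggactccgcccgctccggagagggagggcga
Eif2b5, chr16:20498757-20498836, plus strand: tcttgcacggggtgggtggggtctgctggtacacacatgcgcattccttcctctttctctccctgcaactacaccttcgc
The composite element TGATGNAAN of ATF4 with C/EBP factors, searched on both strands, was in 1 of the 46 windows (2.17%), that of Eif2s3x, against 3.95% of all windows.

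Facts of the whole series that touch these genes are as follows. None of the 5 Rictor probe sets passed limma's test as lower in Rictor-null cells, and where they lie relative to the deletion was not tested, so they do not check the labels. Probe set 1427583_at was higher in Rictor-null Tfh cells, at 45.6 and 53.5, against 32.4 and 35.5 in WT Tfh cells (limma adjusted p = 0.0353). Its Th1 signals were 21.7 and 28.8 in Rictor-null and 28.9 and 30.8 in WT cells, lower without overlap, and this did not pass (log2 fold change -0.11, limma adjusted p = 0.404). The genotypes below are as labelled. Cxcr5, the receptor that defines Tfh cells, read 241 and 297 in Rictor-null Tfh cells and 183 and 179 in WT Tfh cells, against 46.8 to 55.7 on the 4 Th1 arrays. Of 5 Tfh markers tested, 4 were higher in Tfh than in Th1 cells in either genotype, and 5 rose in Rictor-null Tfh cells and 3 in Rictor-null Th1 cells. The summed signal of the 6 Th1 markers did not follow the lineage labels. It was 15112 to 15388 in Rictor-null Tfh cells, 13471 to 13513 in WT Tfh cells, 14337 to 14884 in Rictor-null Th1 cells and 11723 to 11908 in WT Th1 cells. The sum was thus higher in Tfh than in Th1 cells of the same genotype, but its largest part was 1 gene, Ccl5. Ccl5 read 9703 and 9891, 8163 and 8173, 8593 and 9083, and 6607 and 6436 in the same order of groups. Ccl5 was higher in Tfh than in Th1 cells of WT by 0.32 on the log2 scale, as in the values that follow (limma adjusted p = 0.00624) and rose in Rictor-null cells by 0.26 in Tfh (0.0133) and 0.44 in Th1 cells (0.000544). Cxcr6 (-0.58, limma adjusted p = 0.0111) and Il18rap (-0.25, 0.0162) were lower in Tfh than in Th1 cells of the Rictor-null genotype, Il18rap rose by 0.25 in Rictor-null Th1 cells (0.0161), and Tbx21, Ifng and Selplg passed in none of these 4 comparisons.

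Some markers of other cell types also moved with the groups. The B cell genes Cd79a, Ms4a1 and Pax5 lay below the filter, and the summed signal of the 5 B cell genes on the table was 416 to 477 in Rictor-null Tfh cells, 459 to 461 in WT Tfh cells, 265 to 314 in Rictor-null Th1 cells and 341 to 375 in WT Th1 cells. Its largest part was Cd22, which fell by 0.57 in Rictor-null Th1 cells (limma adjusted p = 0.00165) and was higher in Tfh than in Th1 cells by 0.95 in Rictor-null and 0.50 in WT cells (7.44e-05 and 0.00592). Cd79b had the opposite signs to Cd22 in Th1 cells between genotypes (0.38) and between lineages (-0.28 in Rictor-null and -0.19 in WT cells), and did not pass. The myeloid gene Cd68 rose by 0.38 in Rictor-null Tfh cells (limma adjusted p = 0.0101). It was higher in Tfh than in Th1 cells by 0.68 in Rictor-null and 0.38 in WT cells (0.000351 and 0.0134). Cd68 read 74.8 and 91.8 in Rictor-null Tfh cells, 52.2 and 60.3 in WT Tfh cells, and 34.0 to 41.4 on the Th1 arrays. Of the same list Fcer1g was higher in Tfh cells of WT (0.22, limma adjusted p = 0.0364), but gave -0.01 in Rictor-null cells. Between lineages Lyz2 (-0.05 in Rictor-null, 0.11 in WT cells) and Csf1r (0.18 and 0.00) did not pass. Between genotypes in Tfh cells Lyz2 (-0.17), Fcer1g (-0.15) and Csf1r (0.08) of the same list did not pass. Adgre1 (-0.10) and Itgam (-0.05) lay below the filter. The 6 myeloid genes summed to 221 to 247 in Rictor-null Tfh cells, 215 to 229.7 in WT Tfh cells, 179 to 186 in Rictor-null Th1 cells and 177 to 191 in WT Th1 cells. Cd8b1, of CD8 T cells, rose by 0.28 in Rictor-null Tfh cells (limma adjusted p = 0.0109). Cd8a of the same list did not follow it there (-0.07, limma adjusted p = 0.513), and Ncr1, below the filter, gave -0.02. A summed list of 10 immediate-early genes that respond to cell handling was 23740 to 24306 in Rictor-null Tfh cells and 20591 to 20893 in WT Tfh cells. In Th1 cells it was 26977 to 27271 in Rictor-null and 24010 to 24664 in WT cells, so the sum moved with both factors. Its largest parts were Dusp1 and Fos, and Fos did not pass between genotypes. Of the 10 genes, 7 rose and 0 fell in Rictor-null Tfh cells, and 6 rose and 1 (Jun) fell in Rictor-null Th1 cells. In Tfh against Th1 cells 1 (Ier3) was higher and 4 were lower in the Rictor-null genotype, and 0 and 7 in WT. The part of any of these lists in the results below was not tested. Replicate 2 of Rictor-null Tfh cells and replicate 1 of WT Th1 cells stood apart together at the low end of the third principal component (-12.4 and -6.49, with every other array between -0.60 and 6.47).

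By the brightest probe set of each gene, initiation factor messages were bright and close to level in all 4 groups. Some other probe sets of these genes differed more between groups, as described further on. The median member had a mean signal of 615, against 161 for all genes tested, and members ranged between 83.7 (Eif2b3) and 5469 (Eif4g2). Signals of different probe sets are not per length, so they do not rank the genes by abundance. The distance between the highest and lowest of the 4 group means had a median of 0.16 on the log2 scale over members and 0.19 over all genes. It was smallest in Eif3f (0.06) and largest in Eif5a2 (0.45), and Eif2b5 (0.39), Eif4ebp1 (0.34) and Eif4e3 (0.33) followed Eif5a2.

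**Figure D1:**
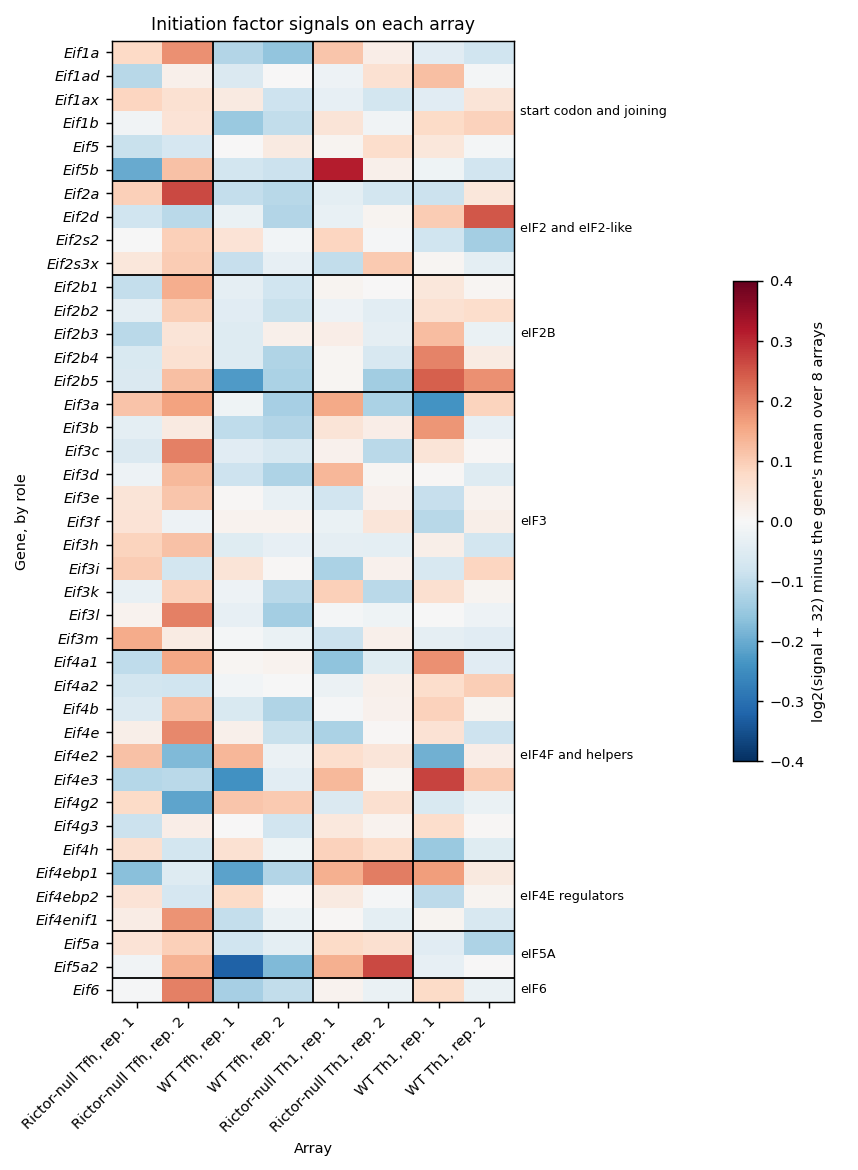
Each row is 1 of the 41 tested initiation factor genes, ordered by role, and each column is 1 array. Colour gives the log2(signal + 32) of that array minus the gene's mean over the 8 arrays. Rictor-null Tfh replicate 2 shows 30 of 41 genes above their own mean and WT Tfh replicate 2 shows 7 of 41.

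The deviations of the members were uneven among Tfh arrays. Their median deviation from their own 8-array means was -0.01 on Rictor-null Tfh replicate 1 and 0.09 on replicate 2, against -0.04 and -0.08 on the WT Tfh arrays. On the 4 Th1 arrays it lay between 0.01 and 0.02. Over all genes tested the medians were -0.01 and 0.02 on the Rictor-null Tfh arrays, against -0.04 and -0.05 on the WT Tfh arrays. Both Rictor-null Tfh arrays thus sat above both WT Tfh arrays for the members and for all genes. For the members, replicate 2 of Rictor-null Tfh cells was the highest of all 8.

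In Tfh cells, 3 initiation factor genes were higher in Rictor-null than in WT cells: Eif1a, Eif2a and Eif5a2, each by 0.27 to 0.31 on the log2 scale. Rose and fell are written here for genes with a Benjamini-Hochberg adjusted p under 0.05 in limma, corrected over the whole set of 11217. Rises were called for 3 of 41 members and falls for 0, against 11.3% and 2.31% of all genes tested, so the members' share is below the background for rises. The median of the 41 log2 fold changes was 0.10, against 0.04 for all genes. It was 0.03, against -0.01, after quantile normalization and 0.06, against 0.04, with the mean of all probe sets. Members above 0 numbered 31 of 41 (75.6%), against 60.7% of all genes, and 38 of 41 lay within 0.25 of 0. The groups did not overlap for 23 members (20 higher and 3 lower), against 59.6% of all genes (39.9% higher and 19.7% lower). An unadjusted p under 0.05 was reached by 11 of 41 members, against 30.3% of all genes. In bulk RNA of sorted cells, fewer cells of a kind and less RNA per cell cannot be told apart.

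Eif1a encodes eIF1A, which scans with the small subunit toward the start codon. Its signal was 335 and 362 in Rictor-null Tfh cells, against 288 and 279.8 in WT Tfh cells. The lower Rictor-null array lay above the higher WT array, and the log2 fold change was 0.27 ± 0.06 (SE, limma adjusted p = 0.0170). In Th1 cells the same gene read 344 and 322 in Rictor-null and 305 and 297 in WT cells, also without overlap, but the fold change of 0.13 ± 0.06 did not pass (limma adjusted p = 0.209).

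Eif2a encodes a separate factor that can deliver transfer RNA without GTP and is not a subunit of eIF2. Its signal was 268 and 305 in Rictor-null Tfh cells, against 231 and 228 in WT Tfh cells. Rictor-null Tfh replicate 2 was the highest of the 8 arrays. The log2 fold change was 0.28 ± 0.07 (limma adjusted p = 0.0248). In Th1 cells the groups overlapped, at 241 and 235 in Rictor-null and 233 and 257 in WT cells, with a fold change of -0.04 ± 0.07.

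Eif5a2 encodes the less widely expressed of both eIF5A proteins, which carry hypusine and relieve ribosomes stalled at difficult peptide bonds. Its signal was 90.0 and 104 in Rictor-null Tfh cells, against 66.3 and 76.9 in WT Tfh cells. In Th1 cells it was 104 and 116 in Rictor-null and 88.4 and 91.3 in WT cells. The genotypes did not overlap in either cell type. The log2 fold change was 0.31 ± 0.07 in Tfh cells (limma adjusted p = 0.0209) and 0.22 ± 0.07 in Th1 cells (limma adjusted p = 0.0947).

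The Tfh calls changed when single arrays were left out. Such a fit leaves 1 array in a group, so a lost call need not mean a smaller effect. The members' median log2 fold change was 0.15 without Rictor-null Tfh replicate 1 and 0.04 without replicate 2. It was 0.11 without WT Tfh replicate 1 and 0.08 without replicate 2, against 0.10 with all arrays. When an array of Rictor-null Tfh cells was left out, the number of members called was 12 (replicate 1) or 0 (replicate 2). For an array of WT Tfh cells it was 0 (replicate 1) or 1 (replicate 2). It was also 0 without both arrays that stood apart on the third component, and the median of the members was then 0.04. Without Rictor-null Tfh replicate 2 the adjusted p (limma) was 0.0876 for Eif1a, 0.137 for Eif2a and 0.117 for Eif5a2. Without WT Tfh replicate 1 it was 0.0950, 0.132 and 0.190 for the same genes in that order. Without WT Tfh replicate 2 it was 0.147 for Eif1a and 0.157 for Eif2a, while Eif5a2 passed.

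**Figure D2:**
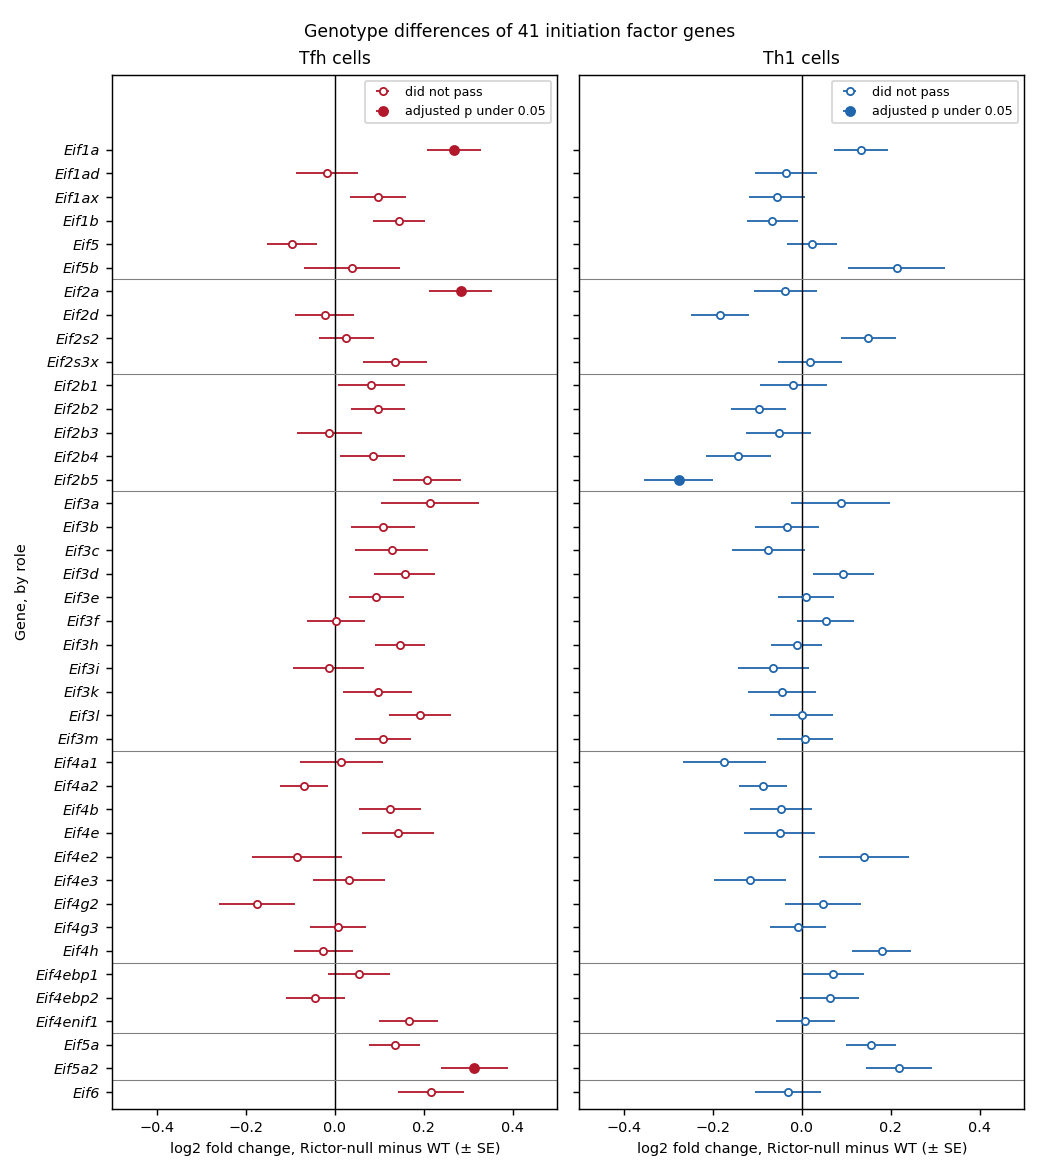
Points are log2 fold changes of Rictor-null minus WT for 41 genes, in Tfh cells at the left and Th1 cells at the right, with bars of 1 SE from limma. Filled points had an adjusted p under 0.05, which were Eif1a, Eif2a and Eif5a2 in Tfh cells and Eif2b5 in Th1 cells. Grey lines part the factor families.

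By their brightest probe sets, the members that the Tfh comparison did not call were small in difference. The largest value below 0 was that of Eif4g2, a relative of eIF4G that does not bind eIF4E. Its signal was 5751 and 4710 in Rictor-null Tfh cells, against 5890 and 5871 in WT Tfh cells, a log2 fold change of -0.18 ± 0.09 (limma adjusted p = 0.198). Replicate 1 lay next to the WT arrays and replicate 2 was the lowest of all 8. Another probe set of Eif4g2, 1458431_at, was called in the opposite direction, at 148 and 154 in Rictor-null Tfh cells, against 109 and 124 in WT Tfh cells (0.30 ± 0.07, limma adjusted p = 0.0209). That call was lost without Rictor-null Tfh replicate 2 (0.0904) or WT Tfh replicate 1 (0.195), and the gene has no settled direction here. Eif6, which keeps the large subunit from joining too early, had 349 and 408 in Rictor-null Tfh cells, against 317 and 325 in WT Tfh cells. Its value was 0.22 ± 0.07 (limma adjusted p = 0.0780), and in Th1 cells it was -0.03 ± 0.07, at 355 and 343 in Rictor-null and 371 and 343 in WT cells.

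The eIF3 complex, the largest of the factors, was measured through 11 subunits. In Tfh cells 10 of the 11 log2 fold changes were above 0, with a median of 0.11, and 0 passed limma's test. The highest were Eif3a (0.21 ± 0.11) and Eif3l (0.19 ± 0.07, limma adjusted p = 0.0967). In Th1 cells 5 of the 11 were above 0, with a median that rounds to 0.00. By its brightest probe set no subunit of eIF3 was called in any of the 6 comparisons.

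In Th1 cells, Eif2b5 was the single member called between genotypes by its brightest probe set, and it was lower in Rictor-null cells. It encodes the catalytic epsilon subunit of eIF2B, whose inherited defects cause vanishing white matter disease in humans. Rises were called for 0 of 41 members and falls for 1, against 7.55% and 2.97% of all genes tested. The members' median log2 fold change was -0.01, against 0.00 for all genes, with 18 of 41 above 0 and 40 of 41 within 0.25 of 0. The groups did not overlap for 15 members, against 56% of all genes, and 6 members had an unadjusted p under 0.05, against 24.8%. After quantile normalization the members' median was -0.06, against -0.03 for all genes. With the mean of all probe sets 3 members rose and 1 fell. Probe sets beyond the brightest passed as higher in Eif1a (1424343_a_at, 0.27), Eif2s2 (1456617_a_at, 0.33) and Eif5 (1456256_at, 0.40). Their limma adjusted p was 0.0306, 0.0348 and 0.0139. These were 3 of 62 such probe sets, against 8.65% of all probe sets of 1 gene that passed the filter.

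Eif2b5 read 226 and 201 in Rictor-null Th1 cells, against 271 and 259.8 in WT Th1 cells. In Tfh cells it read 215 and 248 in Rictor-null and 188 and 204 in WT cells. WT Th1 cells had the highest 2 of the 8 signals, and the genotypes did not overlap in either cell type but lay in opposite order. The log2 fold change was -0.28 ± 0.08 in Th1 cells (limma adjusted p = 0.0437) and 0.21 ± 0.08 in Tfh cells (limma adjusted p = 0.0980). The test of the difference between both effects gave 0.48 ± 0.11 and did not pass (limma adjusted p = 0.0637). The Th1 call was lost in 6 of the 8 fits that leave out an array: at adjusted p = 0.258 without Rictor-null Th1 replicate 2, 0.219 without WT Th1 replicate 1, 0.0917 without WT Th1 replicate 2, 0.0659 without Rictor-null Th1 replicate 1 and 0.0707 without either WT Tfh array (limma).

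The other 4 eIF2B subunits did not pass. All 5 fold changes were below 0 in Th1 cells, between -0.28 and -0.02, and 4 of 5 were above 0 in Tfh cells, between -0.01 and 0.21. Eif2b4, which encodes the delta subunit, had 348 and 329 in Rictor-null Th1 cells, against 401 and 354 in WT Th1 cells. WT Th1 replicate 1, an array that stood apart, was its highest.

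Over both cell types, with each given the same weight, Eif1a, Eif5a and Eif5a2 rose in Rictor-null cells. These were 3 rises and 0 falls among 41 members, against 13.1% and 3.93% of all genes tested, and the members' median was 0.04, against 0.02 for all genes. The mean effect was 0.27 ± 0.05 for Eif5a2 (limma adjusted p = 0.00586), 0.20 ± 0.04 for Eif1a (0.00915) and 0.15 ± 0.04 for Eif5a (0.0308). Eif5a, the widely expressed eIF5A gene, had 4525 and 4650 in Rictor-null Tfh cells, against 4118 and 4235 in WT Tfh cells. In Th1 cells it had 4595 and 4557 in Rictor-null and 4220 and 3991 in WT cells. All 4 Rictor-null arrays were above all 4 WT arrays for Eif5a and for Eif1a, and for Eif5a2 within each cell type.

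Leaving out 1 array gave 1 to 8 members for this mean effect, 8 of them without replicate 1 of Rictor-null Tfh cells and 1 without replicate 2 of WT Tfh cells. Eif5a2 passed in all 8 such fits. Eif1a was lost without WT Tfh replicate 2 (limma adjusted p = 0.0553), and Eif5a in 6 of the 8, at up to 0.130 without WT Tfh replicate 1. After quantile normalization of the log2 values the members' median mean effect was -0.01, so its sign depends on the scaling.

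**Figure D3:**
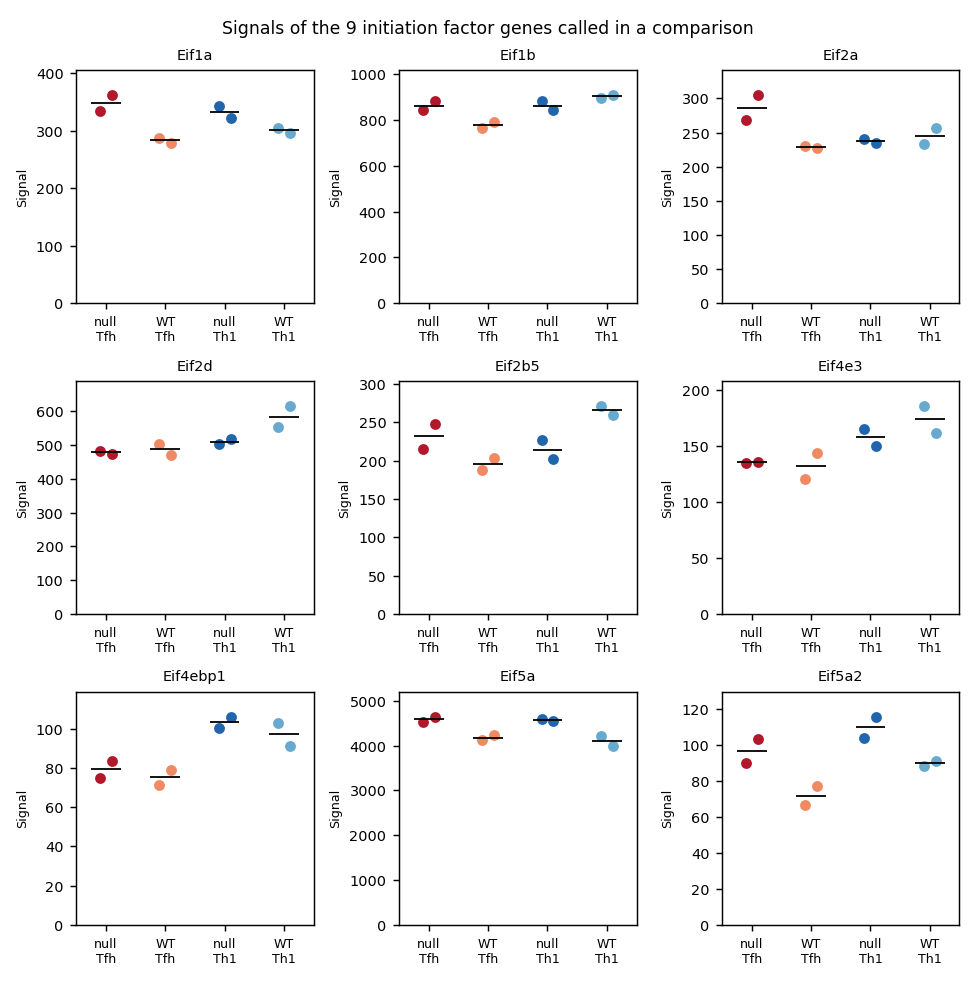
Signals (linear scale, from 0) on each of the 8 arrays for the 9 genes called in at least 1 comparison. Points are arrays and lines are group means of 2 arrays. Rictor-null Tfh, WT Tfh, Rictor-null Th1 and WT Th1 run left to right in each panel. For Eif5a2 the Rictor-null arrays lie above the WT arrays within each cell type, and for Eif4ebp1 all 4 Tfh arrays lie below all 4 Th1 arrays.

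Between lineages, the members called by their brightest probe sets were lower in Tfh than in Th1 cells, at a share close to or below that of all genes. In WT cells 5 members (12.2%) fell and 0 rose, against 11.6% and 3.09% of all genes tested: Eif1b, Eif2b5, Eif2d, Eif4e3 and Eif4ebp1. The members' median log2 difference was -0.07, against -0.06 for all genes, with 11 of 41 (26.8%) above 0, against 34.3% of all genes. The groups did not overlap for 24 members, against 67.7% of all genes. In Rictor-null cells 1 member (2.44%) fell and 0 rose, against 6.45% and 3.27% of all genes, and it was Eif4ebp1. There the median was 0.02, against -0.01 for all genes, with 25 of 41 (61.0%) above 0, against 45.6% of all genes. The groups did not overlap for 15 members, against 49.3%. An unadjusted p under 0.05 was reached by 3 members in Rictor-null cells, against 24.4% of all genes, and by 8 in WT cells, against 33.7%. The direction depended on the probe sets: with the mean of all of a gene's probe sets 2 members rose and 1 fell in Rictor-null cells, and 2 rose and 3 fell in WT cells. After quantile normalization the medians were 0.06 in Rictor-null and -0.02 in WT cells, against 0.00 and -0.02 for all genes. These comparisons use the same arrays as those between genotypes.

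Eif4ebp1 encodes 4E-BP1, the repressor that mTOR complex 1 phosphorylates to free eIF4E. Its signal was 74.98 and 84.0 in Rictor-null Tfh cells, against 101 and 106 in Rictor-null Th1 cells. In WT cells it was 71.7 and 78.9 in Tfh cells, against 103 and 91.5 in Th1 cells. All Tfh arrays lay below all Th1 arrays, while the genotypes overlapped within each lineage. The log2 difference was -0.28 ± 0.07 in Rictor-null cells (limma adjusted p = 0.0281) and -0.27 ± 0.07 in WT cells (0.0300). The Rictor-null call was lost without either Th1 array of that genotype (adjusted p = 0.101 and 0.150) or its first Tfh array (0.0774). The WT call was lost without either Tfh array of that genotype (0.214 and 0.107) or its first Th1 array (0.188). With the mean of its 3 probe sets Eif4ebp1 was called in neither genotype. The effect of genotype on it was 0.05 ± 0.07 in Tfh cells and 0.07 ± 0.07 in Th1 cells.

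Eif2b5 had the largest of these differences in WT cells, -0.39 ± 0.08 (limma adjusted p = 0.0117), and 0.10 ± 0.08 in Rictor-null cells. That call was lost without either WT Tfh array (0.123 and 0.0545) or the first WT Th1 array (0.0790). Eif4e3, a cap-binding relative of eIF4E, had 121 and 144 in WT Tfh cells, against 186 and 162 in WT Th1 cells, a difference of -0.33 ± 0.08 (0.0268). In Rictor-null cells it had 135 and 136 in Tfh cells, against 166 and 150 in Th1 cells, and its difference of -0.18 ± 0.08 did not pass (0.206).

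Eif2d, a factor that can place transfer RNA on the ribosome without eIF2, had 503 and 471 in WT Tfh cells, against 552 and 616 in WT Th1 cells, a difference of -0.25 ± 0.07 (limma adjusted p = 0.0329). Eif1b, a close relative of the start codon factor Eif1, had 764 and 792 in WT Tfh cells, against 898 and 909 in WT Th1 cells, a difference of -0.21 ± 0.06 (0.0373). In neither gene did the WT lineages overlap. None of the 5 passed in WT cells when replicate 1 of WT Tfh cells was left out, and 1 passed without their replicate 2 or without replicate 1 of WT Th1 cells. The count was 3 without either Rictor-null Th1 array, 4 without WT Th1 replicate 2 and 6 without either Rictor-null Tfh array.

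The effect of genotype was set against itself in both lineages by an interaction term, and 0 of 41 members passed limma's test in either direction, against 1.21% of all genes tested. Of these members 6 had an unadjusted p under 0.05, against 19.1% of all genes. The median of the members was 0.12, against 0.04 for all genes. Members above 0 numbered 31 of 41 (75.6%), against 59.7% of all genes, with 10 of 11 in eIF3 and 5 of 5 in eIF2B. With the mean of all probe sets the members' median was 0.06, against 0.04 for all genes. Without Rictor-null Tfh replicate 1 the count was 5, and it was 0 without any other array.

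Of the members fixed for description whatever their test, Eif4e, Eif4ebp2 and Eif2s3x were called in no comparison by their brightest probe sets. Eif4ebp1, Eif5a and Eif6 are described above. Eif4e, the cap-binding subunit, had 282 and 321 in Rictor-null Tfh cells, against 281 and 259 in WT Tfh cells. In Th1 cells it had 251 and 278 in Rictor-null and 290.0 and 260.0 in WT cells. Its genotype effects were 0.14 ± 0.08 and -0.05 ± 0.08 in Tfh and Th1 cells, and neither passed (limma adjusted p = 0.259 and 0.749).

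Eif4ebp2, a second eIF4E-binding repressor, had 1165 and 1067 in Rictor-null Tfh cells, against 1184 and 1118 in WT Tfh cells, and 1150 and 1116 in Rictor-null Th1 cells, against 1039 and 1130 in WT Th1 cells. These groups overlapped throughout. Eif2s3x, the X-linked gamma subunit of eIF2, had 976 and 1015 in Rictor-null Tfh cells, against 884 and 923 in WT Tfh cells, and 879 and 1018 in Rictor-null Th1 cells, against 949.8 and 918 in WT Th1 cells. Its Y-linked copy Eif2s3y was listed at 3.9 to 6.8 on every array, below the filter, as were Kdm5d and Uty of the Y chromosome, while Xist was at 5172 to 5748 on all 8.

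A gene's other probe sets did not always move with its brightest one. The members had 120 probe sets, of which 62 beyond the brightest passed the filter, in 28 genes. Their log2 fold change had the sign of the brightest probe set in 36 of 62 for the genotype effect in Tfh cells, 36 of 62 in Th1 cells, 30 for lineage in Rictor-null cells, 31 for lineage in WT cells, 35 for the interaction and 43 for the mean genotype effect. Calls among them numbered 5, 3, 6, 6, 1 and 3 of 62 in the same order, against 10.2%, 8.65%, 9.82%, 10%, 1.22% and 14.6% of the 19671 probe sets of 1 gene that passed the filter. Of the lineage calls, 5 of 6 in either genotype were higher in Tfh cells. The probe sets named next were picked from those calls after their values were seen.

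**Figure D4:**
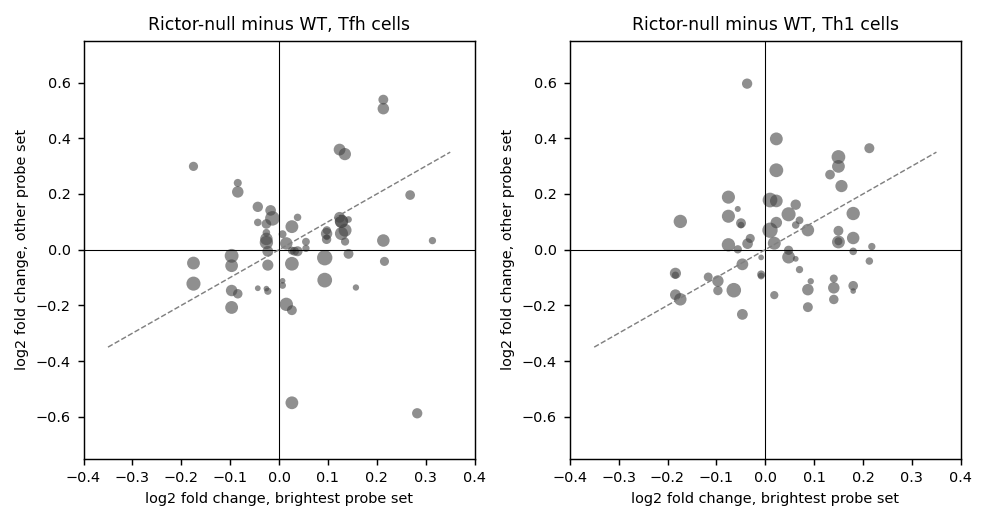
Each point is 1 of the 62 other probe sets, with the log2 fold change of the gene's brightest probe set on the x axis and its own on the y axis. Point size grows with its mean signal on a log scale, and the dashed line marks equality. The sign was shared in 36 of 62 in both the Tfh and the Th1 comparison of genotypes.

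The largest lineage differences called in the family stood on such probe sets. For Eif3a, 1416661_at read 596 and 557 in Rictor-null Tfh cells, against 283 and 264 in Rictor-null Th1 cells, a log2 difference of 0.99 ± 0.19 (limma adjusted p = 0.0127), which was lost without either of these Th1 arrays (0.0740 and 0.0804). In WT cells it read 374 and 420 in Tfh cells, against 224 and 412 in Th1 cells, with overlap. Another probe set of the gene, 1416660_at, was the largest called rise between genotypes in Tfh cells, 0.54 ± 0.11 (0.0140), at 219 and 247 in Rictor-null and 142 and 159 in WT cells, and was lost in 3 of 8 fits without 1 array.

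For Eif4ebp2, 1417084_at read 296 and 319 in Rictor-null Tfh cells, against 149 and 163 in Rictor-null Th1 cells. In WT cells it read 279 and 268 in Tfh cells, against 116 and 158 in Th1 cells. The log2 difference was 0.86 ± 0.10 in Rictor-null cells (limma adjusted p = 0.00123) and 0.86 ± 0.10 in WT cells (0.00203), and both passed in all 8 fits without 1 array. The brightest probe set of the gene gave -0.02 and 0.08.

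For Eif3c, 1415859_at read 1219 and 1339 in Rictor-null Tfh cells, against 955 and 695 in Rictor-null Th1 cells, and 1210 and 1168 in WT Tfh cells, against 644 and 785 in WT Th1 cells. The difference was 0.63 ± 0.13 (limma adjusted p = 0.0184) and 0.72 ± 0.13 (0.0140), and the calls were lost in 2 of 8 fits (without replicate 2 of either Rictor-null group) and 3 of 8 fits (without either WT Tfh array or the first WT Th1 array). For Eif4e3, 1417978_at gave -0.48 ± 0.06 in Rictor-null and -0.58 ± 0.06 in WT cells, in the direction of the brightest probe set, and both passed in all 8 fits.

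**Figure D5:**
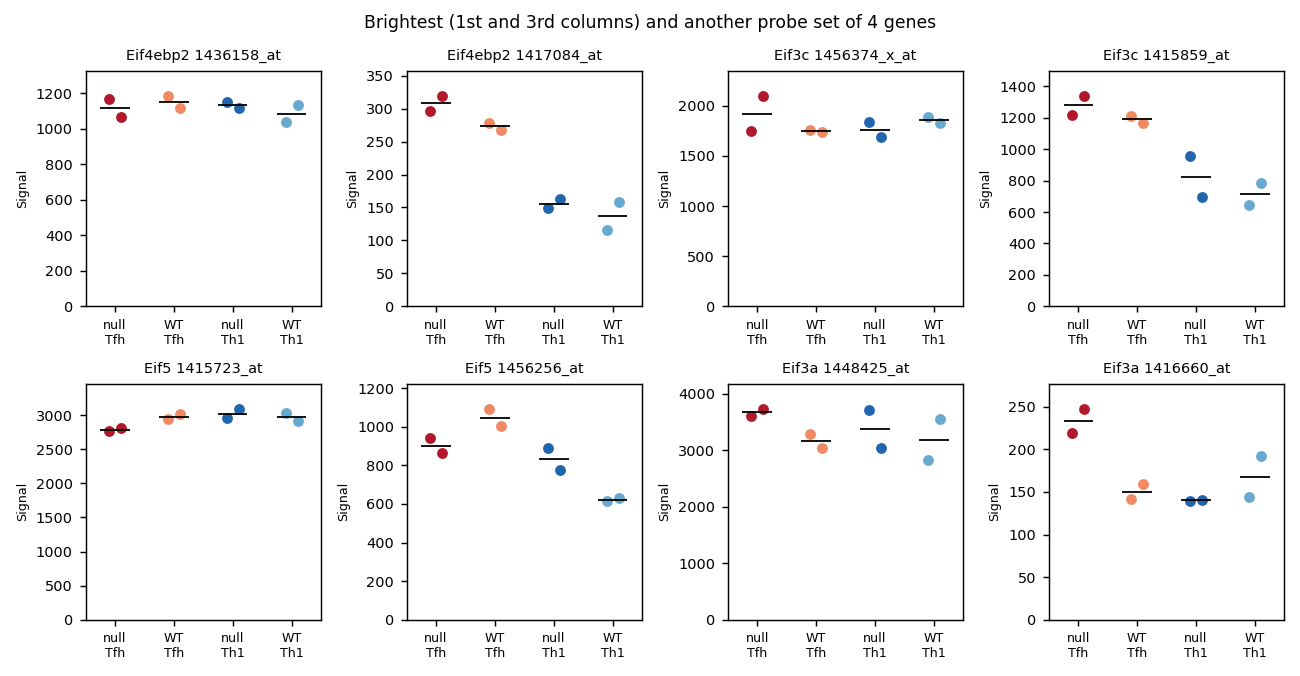
Signals (linear scale, from 0) by array for the brightest and another probe set of Eif4ebp2, Eif3c, Eif5 and Eif3a, side by side. Points are arrays and lines are group means of 2 arrays, with Rictor-null Tfh, WT Tfh, Rictor-null Th1 and WT Th1 left to right. In Eif4ebp2 1417084_at all 4 Tfh arrays (268 to 319) lie above all 4 Th1 arrays (116 to 163), while the brightest probe set overlaps.

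Among genotype effects, 1437859_x_at of Eif5a rose with the brightest probe set. Its value was 0.34 ± 0.07 in Tfh cells (limma adjusted p = 0.0189) and 0.29 ± 0.05 as the mean over both lineages (0.00563). The Tfh call was lost after quantile normalization and in some fits without 1 array. Its fold change lay between 0.28 and 0.37 over all alternatives. 1424343_a_at of Eif1a rose by 0.27 ± 0.06 in Th1 cells (0.0306), where the brightest had not passed and this call was lost in 6 of 8 fits, and by 0.23 ± 0.05 as the mean (0.00837). Both mean effects passed in all 8 fits without 1 array. The second probe set of Eif2a, 1434452_x_at, went the other way, at 256 and 90.5 in Rictor-null Tfh cells, against 298 and 209 in WT Tfh cells, and did not pass. With the mean of all its probe sets Eif2a was -0.15 in this comparison. The lowest signals of 1434452_x_at were on Rictor-null Tfh replicate 2 and, at 121, WT Th1 replicate 1, the arrays that stood apart. In Tfh cells 1455108_at of Eif4e2 was called higher in Rictor-null cells (0.24 ± 0.06, limma adjusted p = 0.0388), where the brightest gave -0.08. 1426378_at of Eif4b was called higher too (0.36 ± 0.08, 0.0213), where the brightest gave 0.12 and did not pass. Both calls were lost after quantile normalization and in some fits without 1 array. Over all alternatives the fold change lay between 0.20 and 0.33 for 1455108_at and between 0.26 and 0.46 for 1426378_at.

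Of 37 other genes of the pathway, 32 were measured. In Tfh cells 3 of the 32 rose and 1 fell between genotypes, against 11.3% and 2.31% of all genes tested, and in Th1 cells 2 rose and 1 fell, against 7.55% and 2.97%. These shares are near the background. The interaction called 0, against 1.21%. Eif2ak2, which encodes the double-stranded RNA sensor PKR that phosphorylates eIF2, had 187 and 201 in Rictor-null Tfh cells, against 167 and 162 in WT Tfh cells. In Th1 cells it had 156 and 151 in Rictor-null and 123 and 118 in WT cells. The genotypes did not overlap in either lineage. The fold change was 0.20 ± 0.06 in Tfh cells (limma adjusted p = 0.0438) and 0.29 ± 0.06 in Th1 cells (0.00919), and the mean effect of 0.24 ± 0.04 (0.00201) passed in all 8 fits without 1 array, whereas the Tfh call was lost in 7 of 8 and the Th1 call in 2 of 8.

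The other genotype calls were Eif2ak3 (0.25), which encodes the endoplasmic reticulum kinase PERK, Etf1 (0.26), the release factor, and Rps6ka3 (-0.36), the kinase RSK2, in Tfh cells. In Th1 cells they were Ppp1r15b (0.22), a regulatory subunit of the eIF2 phosphatase, and Eef1e1 (-0.22), a synthetase complex protein. Mtor, the kinase of both mTOR complexes, had -0.01 ± 0.06 and -0.05 ± 0.06 in Tfh and Th1 cells. Between lineages, Eif2ak2 was higher in Tfh cells by 0.28 in Rictor-null and 0.37 in WT cells, while Gspt1 (-0.28) and Rps6ka3 (-0.33) in Rictor-null cells, and Ppp1r15a (-0.27), Eif2ak3 (-0.24) and Myc (-0.26) in WT cells, were lower. Each of these passed limma's test, and each was lost in at least 1 of the 8 fits without an array. As a mean over both lineages 4 of the 32 rose (Eif2ak2, Ppp1r15b, Etf1 and Paip2) and 1 fell (Rps6ka3), against 13.1% and 3.93% of all genes.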

How the data were processed

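The authors deposited linear intensity values of 45037 probe sets for the 8 arrays. Per the submitters' processing notes MAS5 and RMA were named, with no version, role or order, and the sources used here do not say how arrays were scaled to each other. Per the labels' protocols, biotinylated cRNA came from 100 ng of total RNA. Detection calls were not used. Genes were named through the platform annotation, which can be old: 34945 probe sets had 1 symbol, 932 several and 9160 none.

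Signals were taken to log2 after adding 32, so fold changes of dim genes are understated. Probe sets above their array's median on at least 2 arrays were kept, and the brightest by mean stood for its gene. limma 3.58.1 in R 4.3.3 fitted 1 mean per group over all 8 arrays (residual degrees of freedom 4, prior 6.70), and the script was tested on simulated data. An exact permutation of 2 arrays against 2 cannot give a two-sided p below 0.333. The number of arrays limits the precision.

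Members, gene lists and tests were chosen with earlier results of these data known. Members called in a comparison, the extremes of each genotype comparison and a fixed set were named with values, and pathway genes where called.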

Additional observations from a re-analysis of the deposited data

Results flagged for a closer look

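One probe set of an initiation factor showed a genotype effect that differed between lineages by the interaction term. Eif5 probe set 1456256_at, for the factor that triggers GTP hydrolysis by eIF2 at the start codon, read 942 and 863 in Rictor-null Tfh cells, against 1092 and 1002 in WT Tfh cells. In Th1 cells it read 889.5 and 776 in Rictor-null and 617 and 629 in WT cells. The genotype effect was -0.21 in Tfh cells, which did not pass, and 0.40 in Th1 cells, which passed (limma adjusted p = 0.0139). The interaction was -0.61 ± 0.11 (limma adjusted p = 0.0398). This probe set was also higher in Tfh than in Th1 cells of WT, by 0.72 ± 0.08 (limma adjusted p = 0.00114). The interaction call was lost in 6 of the 8 fits without 1 array, at up to adjusted p = 0.248 without WT Tfh replicate 1. The brightest probe set of Eif5 gave an interaction of -0.12 ± 0.08 (limma adjusted p = 0.422).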

How the results depend on the processing

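With 2 arrays a group the counts of members called were small and moved. For Rictor-null minus WT in Tfh cells (3 members), quantile normalization and a fit on only the 4 arrays compared gave 1 each, and leaving out both arrays low on the third component, an alternative chosen after seeing the data, gave 0. For Th1 cells (1), quantile normalization gave 2 and the mean of all probe sets 4 (3 rises and 1 fall). Subtracted array medians, no filter, a pseudocount of 1 and the replicate block gave 0 each. For Tfh minus Th1 in Rictor-null cells (1), quantile normalization and leaving out both arrays gave 2 each, the mean of all probe sets 3, and no filter, array weights and only the 4 arrays 0 each. In WT cells (5), quantile normalization gave 1, leaving out both arrays 2, a pseudocount of 1 and the replicate block 3 each, and array weights 8. The interaction (0) gave 1 with the mean of all probe sets. Leaving out 1 array gave 0 to 12, 0 to 2, 0 to 2, 0 to 6, 0 to 5 for the interaction and 1 to 8 for the mean effect. The mean effect (3) gave 2 or 3 under the other settings that kept all 8 arrays. The 2 after quantile normalization were 1 rise and 1 fall.

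Of 218 values for members under alternatives, 138 stayed called, 79 were not called and 1 reversed: Eif2a in Tfh cells was -0.15 with the mean of all probe sets. Of 336 values for other probe sets, 90 were not called, and of 318 for pathway genes 113. The cause was not tested. Quantile normalization moved the share of calls that were higher, over all genes, to 63.1% against 83.0% (genotype in Tfh), 55.4% against 71.8% (Th1), 44.5% against 33.7% (lineage in Rictor-null), 40.2% against 21.0% (lineage in WT) and 54.0% against 77.0% (mean effect).

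Replicate numbers are shared across groups, with no pairing in the labels. Replicate 1 deviations correlated at 0.28 between Tfh groups and 0.17 between Th1 groups, but -0.28 between Rictor-null groups and -0.23 between WT groups, and the replicate block gave 3, 0, 1, 3, 0 and 2 members in the 6 comparisons.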

Other observations

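Probe sets shared between an initiation factor and another gene were kept out of the members. The one annotated to both Eif4ebp3, another eIF4E-binding repressor, and Ankhd1 read 315 and 341 in Rictor-null Tfh cells, against 393 and 383 in Rictor-null Th1 cells, and 322 and 318 in WT Tfh cells, against 409.9 and 386 in WT Th1 cells. All 4 Tfh arrays lay below all 4 Th1 arrays. The log2 difference was -0.22 ± 0.06 in Rictor-null (limma adjusted p = 0.0481) and -0.29 ± 0.06 in WT cells (0.0236), over probe sets passing the filter and those shared, and which of the overlapping genes gave the signal cannot be told apart. For the eIF3 subunit pair Eif3j1 and Eif3j2, 1 of 3 shared probe sets, 1426394_at, was higher in Rictor-null cells as a mean over both lineages, by 0.15 ± 0.04 (limma adjusted p = 0.0462), and the other two gave 0.05 and -0.01.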
